A study of Mus musculus with 18 samples.

Results

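The protocadherin genes were taken as every gene of the expression table whose symbol starts with *Pcdh*. This rule gave 66 of the 15329 genes listed. In all, 54 of them belong to the clusters on chromosome 18, with 11 *Pcdha*, 21 *Pcdhb* and 22 *Pcdhg* genes, and 12 are non-clustered protocadherins. *Pcdha4*, *Pcdha6*, *Pcdha7* and *Pcdhb1*, 4 genes that the annotation also holds, are absent from the expression table and could not be analysed. RNA of the hippocampus of C57BL/6J mice aged 8 to 10 weeks was sequenced in 18 libraries, with 3 libraries and 3 mice per group, and p-values measure the spread between libraries. WT and *Ccny* knockout (KO) mice were either untrained (WT_Basal and KO_Basal), trained in original learning (WT_OL and KO_OL), in which a hidden platform is learned in the Morris water maze, or trained in original and then reversal learning with the platform moved (WT_RL and KO_RL). *Ccny* encodes cyclin Y, and its reads remained in the KO libraries at a lower level. The labels do not describe the deleted part.

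Protocadherins are cadherin-type adhesion proteins of the neuronal surface. In the *Pcdha* and *Pcdhg* clusters each variable exon has a promoter of its own and is spliced to constant exons shared by the whole cluster, whereas each *Pcdhb* gene is a single exon. A neuron chooses a small set of the variable exons at random, and the proteins bind their like across cells, which serves self-recognition of dendrites and axons. The C-type genes at the end of the *Pcdha* and *Pcdhg* clusters are used far more evenly between neurons. Non-clustered protocadherins are separate genes with roles in adhesion, axon outgrowth and synapse remodelling. In RNA of whole tissue, fewer cells of a type and less RNA per cell cannot be told apart.

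Reads counted over the genes of the table numbered 29248557 to 31509208 in the 6 untrained libraries and 31830344 to 37915576 in the 12 trained ones. The totals of sequenced reads that the study reports overlap between untrained and trained libraries. Its share of uniquely mapped reads was mostly higher in the trained ones. The number of counted reads and training cannot be told apart. *Ccny* lay between 74.0 and 95.8 CPM (reads of a gene scaled to the TMM-normalized library total) in the 9 KO libraries and between 107 and 158 CPM in the 9 WT libraries, without overlap. Markers of CA1, CA3 and dentate granule neurons were present in every library. Markers of neighbouring regions were found as well. The sum of 5 hypothalamic markers was 2.31, 3.64 and 83.5 CPM in KO_Basal and 1.31 to 8.16 CPM in the other groups. That of 5 thalamic markers was 56.9 to 176 CPM over all libraries. Their part in the protocadherin values was not tested. WT_OL replicate 2 stood apart from the rest. It was the lowest of the 18 libraries for 44 of the 66 protocadherins, where it was lowest for 22.3% of all genes, and no other library was lowest for more than 3 of them. In the same library the summed level of 7 oligodendrocyte markers was 10454 CPM, against 4691 to 9079 CPM in the others, and that of 5 dentate granule markers was 147 CPM, against 179 to 385 CPM. The part of these cells in the protocadherin values was not tested, and the main results that rest on it are also given without it.

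**Levels.** Levels of different genes were compared as CPM per kilobase (kb) of exon that no other gene of the same strand shares, since reads on shared exons were not counted for any one gene. Overlap with genes of the other strand was not subtracted. It is present in 2 *Pcdha*, 1 *Pcdhb*, 8 *Pcdhg* and 4 non-clustered genes. The strand setting of the counting is not known, so levels and ranks of these genes are less certain. Between 45.1% and 61.1% of exon bases were unshared for *Pcdha* genes, 33.2% to 68.5% for *Pcdhg* genes, 90.3% to 100% for *Pcdhb* genes and 100% for the non-clustered genes. The median gene stood at 1.20 CPM per kb in *Pcdha*, 1.33 in *Pcdhb*, 3.63 in *Pcdhg* and 7.87 in the non-clustered set. The clusters therefore ran from faint *Pcdha* to stronger *Pcdhg* genes, and the non-clustered genes covered the widest range.

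C-type genes led their clusters. *Pcdhgc3* (chr18:37806364-37841873, plus strand) had 23.3 ± 2.65 CPM per kb (SD, n = 18) and *Pcdhgc5* (chr18:37819513-37841873) had 21.7 ± 3.40, and the values of these neighbours overlapped. The third *Pcdhg* gene was *Pcdhga11*, a randomly chosen exon, at 8.95 ± 1.28 CPM per kb, below every value of *Pcdhgc3* and *Pcdhgc5*. *Pcdhgc4* (chr18:37815079-37841873), the C-type gene known to be needed for survival of interneurons, stood at only 3.55 ± 0.64.

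In the *Pcdha* cluster, *Pcdhac2* (chr18:37143503-37187657), which is needed for serotonergic axon tiling, had 10.9 ± 1.72 CPM per kb. The next, *Pcdha12* at 2.58 ± 0.53 and *Pcdha9* at 1.78 ± 0.39, lay below it in all libraries. *Pcdhac1* (chr18:37090013-37187657) reached 1.38 ± 0.21, within the range of the randomly chosen genes. *Pcdha8* was the faintest clustered gene, at 0.10 ± 0.06 CPM per kb, and had no read in 1 library.

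*Pcdhb9* (chr18:37400855-37403909) was the highest *Pcdhb* gene, at 5.36 ± 0.68 CPM per kb. It was followed by *Pcdhb7* at 3.13 ± 0.41 and *Pcdhb17* at 2.98 ± 0.24, which did not differ beyond their spread. *Pcdhb21* closed the order at 0.55 ± 0.11. The highest value of *Pcdhb9* in any library, 6.65 CPM per kb, lay just under the lowest of *Pcdhac2*, 6.75.

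Among non-clustered genes *Pcdh20* was highest, at 31.1 ± 3.81 CPM per kb. *Pcdh9* at 20.2 ± 2.25 and *Pcdh1* at 18.2 ± 4.08 overlapped each other, and *Pcdh8* followed at 13.8 ± 2.88. *Pcdh19*, the gene of an X-linked epilepsy, had 9.18 ± 1.70, next to *Pcdh17* at 8.33 ± 1.36, *Pcdh10* at 7.42 ± 0.77 and *Pcdh7* at 7.10 ± 0.87, and these neighbours overlapped. *Pcdh11x* at 0.99 ± 0.22 and *Pcdh18* at 0.97 ± 0.23 followed, and their values overlapped. *Pcdh15*, a component of the tip link of hair cells, had 0.48 ± 0.11, and *Pcdh12*, known from endothelium, was the faintest of all members at 0.09 ± 0.03.

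**Figure D1:**
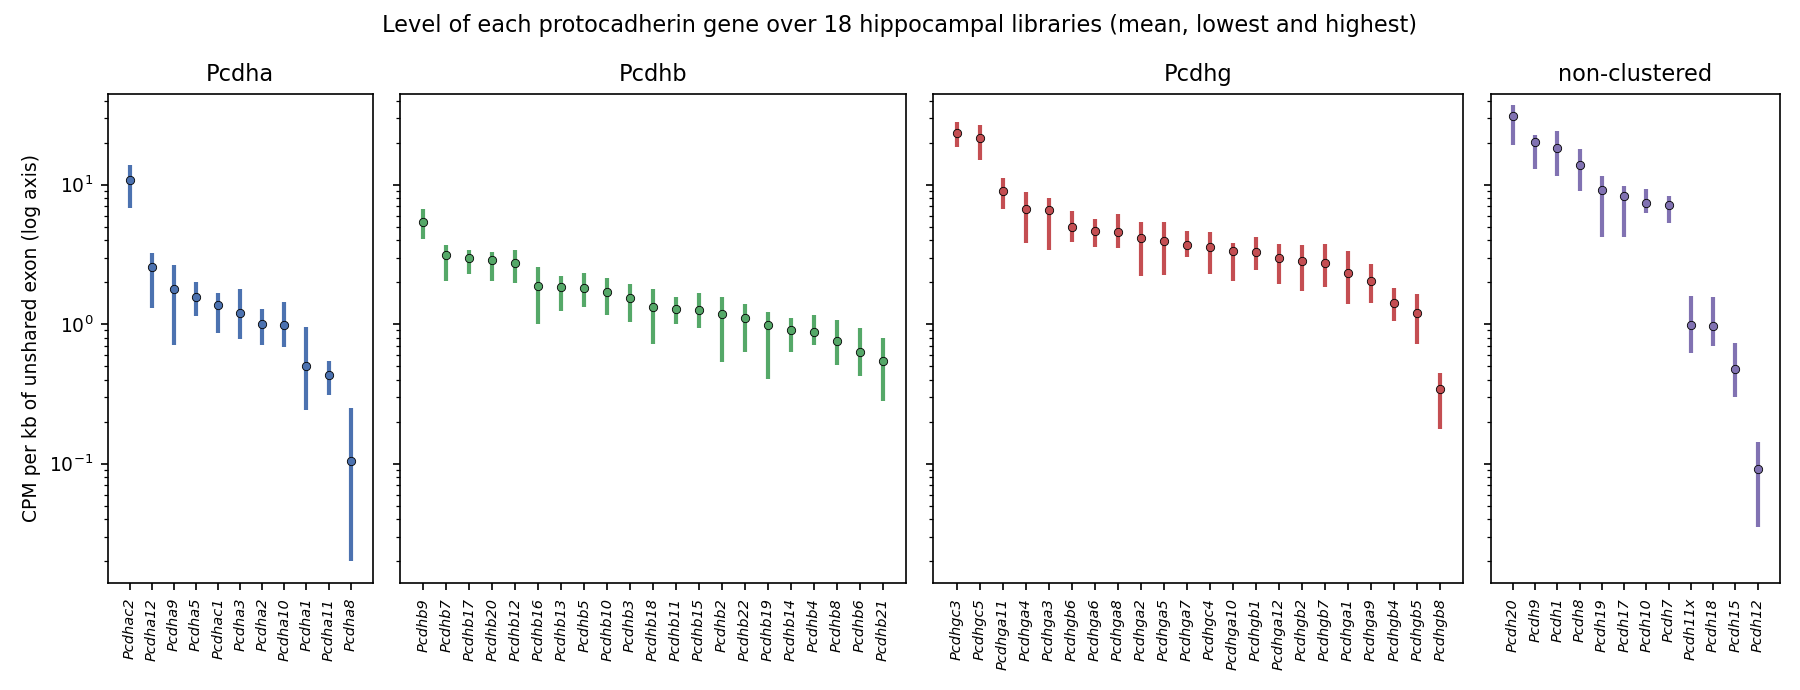
Level of each of the 66 protocadherin genes in CPM per kb of unshared exon (log axis), in descending order within each family. Points are means over the 18 libraries and lines run from the lowest to the highest library, with the lowest value of *Pcdha8*, which is 0, drawn at the foot of its line. *Pcdhac2*, *Pcdhgc3* and *Pcdhgc5* stand above the other genes of their clusters, and *Pcdh20* is the highest non-clustered gene.

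The make-up of the clusters was steady. *Pcdhgc3*, *Pcdhgc4* and *Pcdhgc5* together took 47.2% to 51.4% of the summed CPM of the 22 *Pcdhg* genes in 17 libraries and 56.0% in WT_OL replicate 2. *Pcdhac2* alone took 50.2% to 55% of the summed *Pcdha* CPM over all 18 libraries. In WT_OL replicate 2 *Pcdhgc5* was at 68.6 CPM, the lowest of the series, while *Pcdhgc3* was at 93.3 CPM, the second highest, so these neighbouring C-type genes parted in that library.

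**Figure D2:**
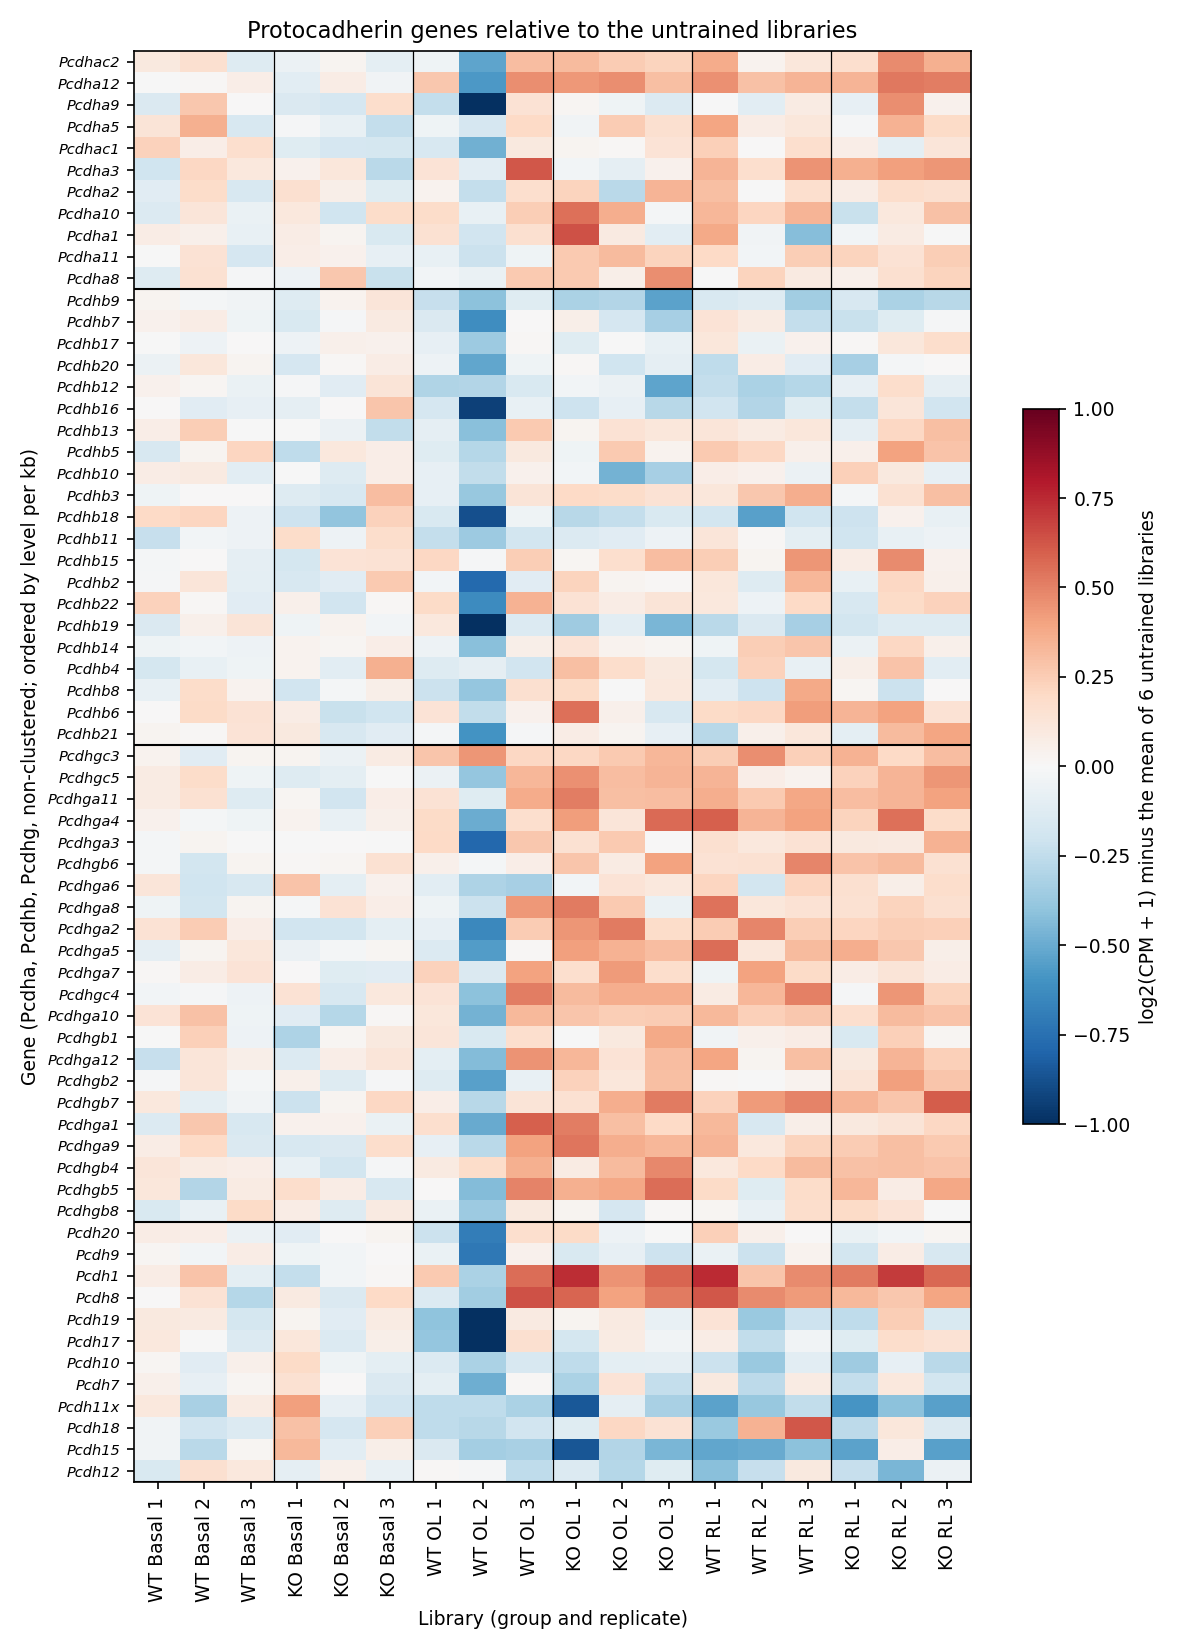
Difference of log2(CPM + 1) from the mean of the 6 untrained libraries, for each protocadherin gene (rows, by family and level) in each library (columns, by group), with colours ending at 1 and -1. The column of WT_OL replicate 2 is low for most genes but not for *Pcdhgc3*, and *Pcdhg* genes, *Pcdh1* and *Pcdh8* are mostly above 0 in the trained groups.

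**Training.** The comparisons of trained with untrained mice address what changed in the hippocampus with original learning and with reversal learning. The comparisons of OL and RL share the untrained mice of their genotype, and their values are set side by side without a measure of likeness. Log2 fold changes are on the log2(CPM + 1) scale, which understates changes of low genes. A gene was called at an adjusted p under 0.05 by limma (moderated linear model over all 18 libraries, Benjamini-Hochberg adjustment over 15329 genes). No protocadherin of the expression table was left out by the filter on low values used here. Where libraries are said not to overlap or to lie apart, this describes the values and is no support for a change, called or not. The share of all genes without overlap was not counted for pairs of groups.

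In KO_OL against KO_Basal, 9 of the 66 protocadherins were called, 7 higher and 2 lower, beside 23.5% of all genes called, 11.2% higher, and 1886 genes lower. In KO_RL against KO_Basal, 7 were called, 6 higher and 1 lower, beside 23.6% of all genes called, 11.6% higher, and 1836 genes lower. In WT_RL against WT_Basal 3 genes were higher and none lower, beside 15.7% of all genes called and 8.28% higher. In WT_OL against WT_Basal *Pcdhgc3* was higher and no other member was called, beside 9.50% called and 3.88% higher. The share of protocadherins called was below that of all genes in each of these comparisons. Without WT_OL replicate 2 in the shared fit, 17 were called in KO_OL beside 29.5% of all genes, 15 in KO_RL beside 29.8% and 9 in WT_RL beside 21.4%. None was called in WT_OL beside 5.90% of all genes, where *Pcdhgc3* had an adjusted p of 0.067 by limma. In the same KO comparisons the markers of choroid plexus epithelium, 12 genes that include *Ttr*, were higher in the trained mice. Their summed level was 229 to 1151 CPM in KO_Basal, 3679 to 7046 CPM in KO_OL and 2136 to 7789 CPM in KO_RL, with 12 genes called higher in KO_OL and 10 in KO_RL. In WT mice it was 1467 to 6540 CPM untrained, 3173 to 4946 CPM in WT_OL and 219 to 12886 CPM in WT_RL, with none called. The part of this tissue in the protocadherin changes was not tested.

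The 20 calls fell on 13 genes, of which 8 were *Pcdhg*, 4 non-clustered, 1 *Pcdhb* and none *Pcdha*. *Pcdhg* genes made up 6 of the 7 higher calls in KO_OL and 5 of the 6 in KO_RL. The share of *Pcdhg* genes called was 27.3% in KO_OL, 22.7% in KO_RL, 9.09% in WT_RL and 4.55% in WT_OL. Beside these, 23.5%, 23.6%, 15.7% and 9.50% of all genes were called in either direction. The *Pcdhg* calls were all higher, where 11.2%, 11.6%, 8.28% and 3.88% of all genes were called higher. The median change of the 22 *Pcdhg* genes was 0.33 in KO_OL, 0.24 in KO_RL, 0.17 in WT_RL and -0.02 in WT_OL on the log2 scale. That of the 21 *Pcdhb* genes was 0.02, 0.04, 0.00 and -0.18, and the median over all genes lay between -0.01 and 0.00. Without WT_OL replicate 2 the WT_OL medians were 0.13 in *Pcdhg* and -0.06 in *Pcdhb*, so that the sign of the *Pcdhg* median turned with that library. In the same order, 20, 22, 20 and 9 of 22 *Pcdhg* genes were above 0, and 11, 12, 11 and 1 of 21 *Pcdhb* genes.

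These families differ in base composition. The median GC content of transcripts was 53.0% in *Pcdhg*, 45.6% in *Pcdhb*, 47.3% in *Pcdha* and 45.5% in the non-clustered genes. With the log2 values corrected for GC content in each library, the median change of *Pcdhg* genes was 0.26 in KO_OL, 0.17 in KO_RL, 0.10 in WT_RL and -0.10 in WT_OL, and that of *Pcdhb* genes was 0.11, 0.10, 0.06 and -0.10. With this correction 3 members were called in KO_OL (1 higher, 2 lower) and 2 in KO_RL (both higher), beside 15.2% and 17.8% of all genes with a GC value. In WT_RL 2 were called beside 7.73%, and in WT_OL none beside 2.32%. Of the 20 calls made without the correction, 4 were kept with it and 16 were lost.

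**Figure D3:**
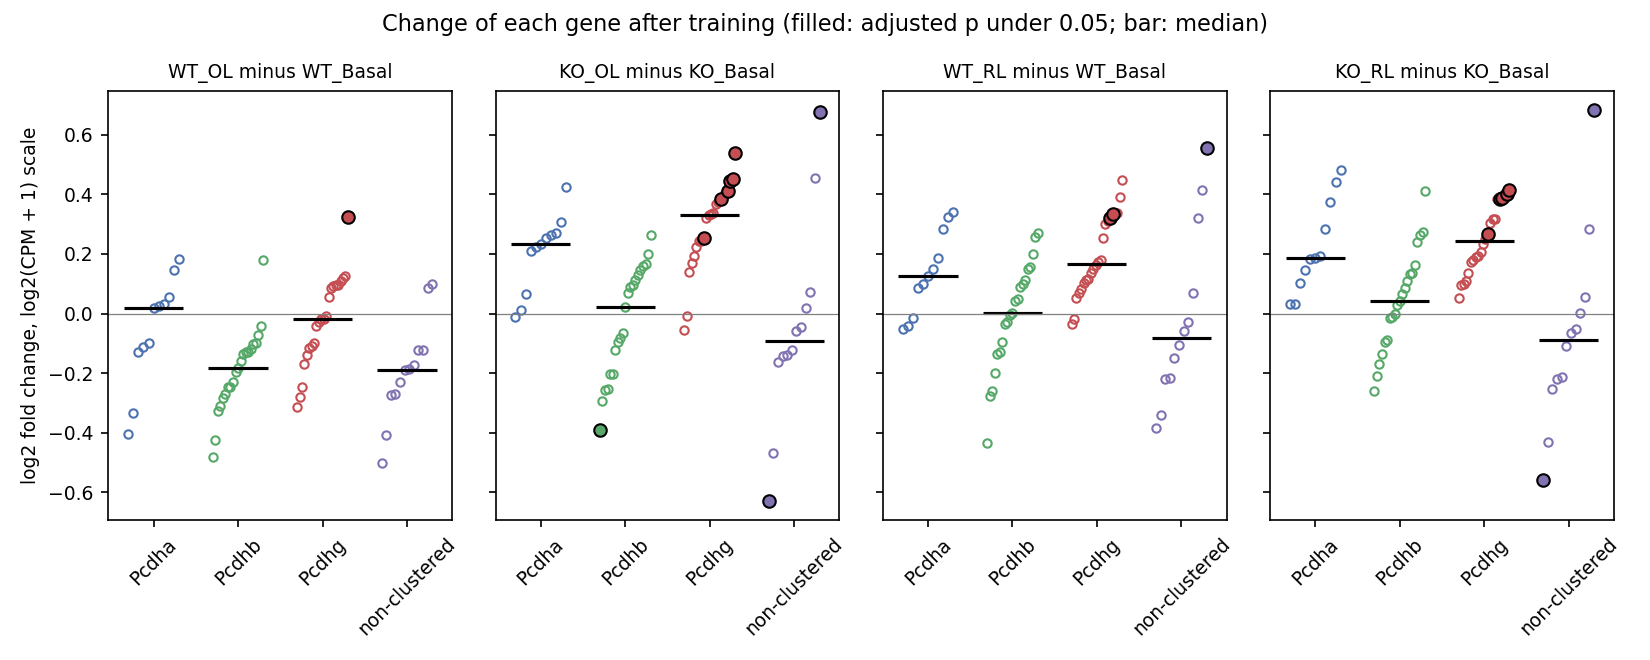
Log2 fold change after training for each protocadherin gene, by family, in 4 comparisons with the untrained mice of the same genotype. Filled points have an adjusted p under 0.05 and bars are medians, so that 7 higher and 2 lower filled points stand in KO_OL and 1 filled point, *Pcdhgc3*, stands in WT_OL.

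The *Pcdhg* cluster as a whole, added up per library, had 339, 351 and 357 CPM in WT_Basal and 325, 334 and 351 CPM in KO_Basal. It had 418, 427 and 436 CPM in KO_OL, 403, 418 and 428 CPM in KO_RL, 397, 400 and 420 CPM in WT_RL, and 303, 361 and 419 CPM in WT_OL. Apart from WT_OL replicate 2, at 303 CPM, each trained library lay above each untrained one. The *Pcdhb* sum was 142 to 163 CPM in untrained libraries and 133 to 159 CPM in the trained ones other than WT_OL replicate 2, which had 101 CPM.

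The ratio of the *Pcdhg* to the *Pcdhb* sum was 2.16 to 2.35 in the 6 untrained libraries and 2.59 to 3.20 in the 12 trained ones, WT_OL replicate 2 included at 3.0. Without the 3 C-type genes it was 1.09 to 1.20 and 1.29 to 1.60. Trained and untrained libraries did not overlap in either of these ratios. They did overlap in the ratio of the *Pcdha* to the *Pcdhb* sum, at 0.33 to 0.42 untrained and 0.39 to 0.50 trained. How often ratios of other gene sets separate in this way was not counted. The mean of the *Pcdhg* to *Pcdhb* ratio was 2.31 ± 0.03 in WT_Basal and 2.25 ± 0.10 in KO_Basal (SD, n = 3). After training it was 2.79 ± 0.21 for WT_OL mice, 3.03 ± 0.15 for KO_OL, 2.76 ± 0.09 for WT_RL and 2.78 ± 0.14 for KO_RL. No p is given for these sums and ratios, which add genes of different GC content and were not corrected for it.

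**Figure D4:**
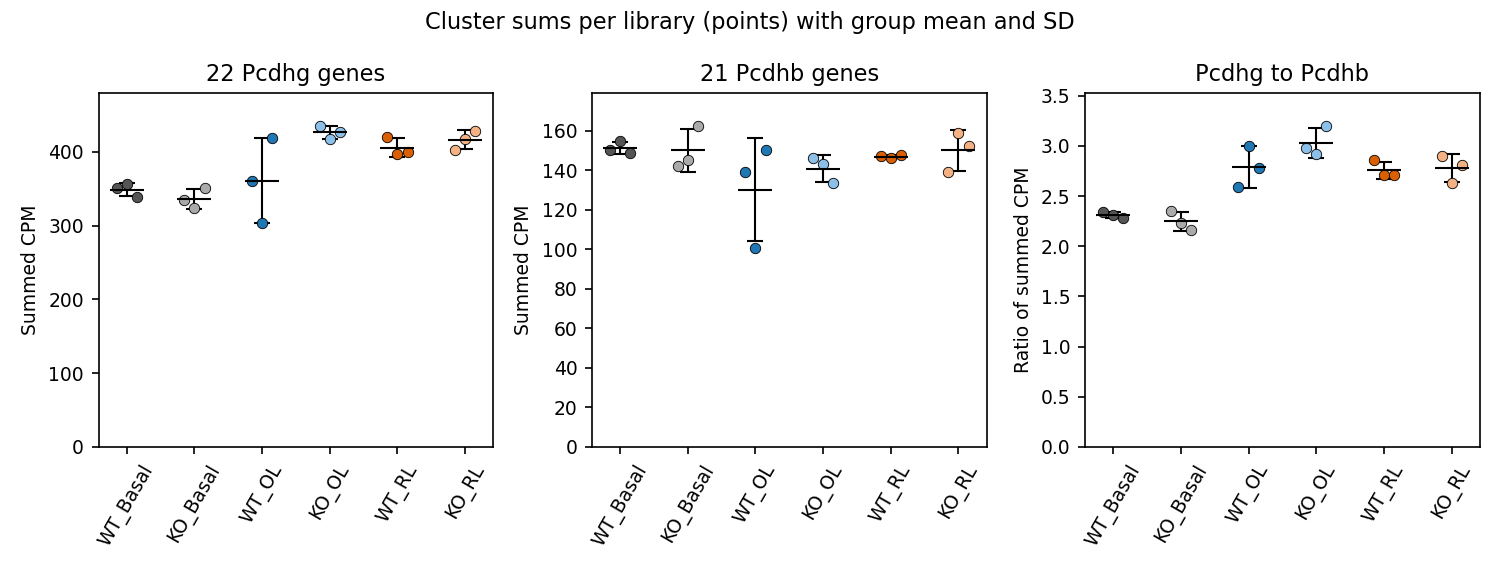
Summed CPM of the 22 *Pcdhg* and the 21 *Pcdhb* genes and the ratio of these sums, per library (points) with group mean and SD (n = 3). The 12 trained libraries lie between 2.59 and 3.20 in the ratio and the 6 untrained ones between 2.16 and 2.35.

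***Pcdhg* genes.** *Pcdhgc3*, a C-type isoform known to be made also outside neurons, had 63.2, 69.7 and 69.9 CPM in WT_Basal and 65.4, 69.6 and 72.1 CPM in KO_Basal. It had 78.9, 82.9 and 93.3 CPM in WT_OL, 79.1, 82.1 and 86.0 CPM in KO_OL, 80.8, 81.2 and 94.5 CPM in WT_RL, and 78.5, 84.6 and 86.9 CPM in KO_RL. Each of the 12 trained libraries was above each of the 6 untrained ones. *Pcdhgc3* was the single protocadherin of which this was true, beside 3.48% of all genes, and no protocadherin had all trained libraries below the untrained, beside 5.77%. Without WT_OL replicate 2, *Pcdha12* and *Pcdhga4* joined it, beside 5.68% of all genes.

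*Pcdhgc3* was called in all 4 training comparisons, the only member for which this was so. Its log2 change was 0.32 ± 0.08 (SE) in WT_OL with an adjusted p of 0.0171 by limma, and 0.33 ± 0.08 in WT_RL with 0.0109. It was 0.25 ± 0.08 in KO_OL with an adjusted p of 0.0308 by limma, and 0.27 ± 0.08 in KO_RL with 0.0230. These are 1.19 to 1.26-fold differences. With the GC correction the calls were lost in WT_OL, KO_OL and KO_RL (adjusted p = 0.135, 0.129 and 0.068) and kept in WT_RL (adjusted p = 0.045). The WT_OL call was also lost without WT_OL replicate 2 or WT_Basal replicate 2 (adjusted p = 0.067 and 0.075), the WT_RL call without WT_RL replicate 2 (0.055), and each KO call without any 1 of 4 libraries (0.061 to 0.116). Over 1559 bases its exons overlap *BC037039* on the other strand, and the strand setting of the counting is not given in the sources used here.

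*Pcdhgc5*, a C-type isoform of mature neurons, was called in both trained KO groups. It had 87.5, 95.5 and 102 CPM in WT_Basal and 82.4, 84.1 and 89.6 CPM in KO_Basal. It had 111, 114 and 124 CPM in KO_OL and 106, 114 and 123 CPM in KO_RL, all above every untrained library. In WT_OL it had 68.6, 86.3 and 114 CPM and in WT_RL 92.2, 94.1 and 114 CPM, which overlapped WT_Basal. The log2 change was 0.44 ± 0.13 in KO_OL (adjusted p = 0.0249, limma) and 0.41 ± 0.13 in KO_RL (adjusted p = 0.0346), and without WT_OL replicate 2 in the fit these adjusted p were 0.0045 and 0.0069. Each call was lost without any 1 of 4 libraries of its groups, KO_Basal replicates 1 and 2 among them (adjusted p up to 0.121). In WT_OL it was -0.11 ± 0.13 and in WT_RL 0.07 ± 0.13. The difference between the genotypes in the OL change was 0.56 ± 0.19 and did not pass (adjusted p = 0.388, limma), nor did that in the RL change, 0.34 ± 0.19 (adjusted p = 0.908). With the GC correction the adjusted p in KO_OL and KO_RL was 0.107 and 0.115.

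*Pcdhga11* (chr18:37755731-37841873) had 17.6, 20.5 and 21.2 CPM in KO_Basal, 25.2, 25.3 and 29.3 CPM in KO_OL and 25.3, 25.9 and 27.1 CPM in KO_RL. The trained KO libraries lay apart from the untrained ones, with log2 changes of 0.41 ± 0.11 (adjusted p = 0.0149, limma) and 0.39 ± 0.11 (adjusted p = 0.0207). The WT values were 18.5, 21.5 and 22.6 CPM in WT_Basal, 18.6, 22.4 and 26.4 CPM in WT_OL and 24.4, 26.4 and 26.8 CPM in WT_RL. In WT_RL the change from WT_Basal was 0.30 and did not pass (adjusted p = 0.079, limma), and WT_OL overlapped WT_Basal. The KO calls were lost without KO_Basal replicate 2 (adjusted p = 0.075 and 0.099), without KO_OL replicate 1 (0.076) or KO_RL replicate 3 (0.073), and with the GC correction (0.062 and 0.066). Antisense to it lies *Gm26672*, over 1381 bases.

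*Pcdhgb4* (chr18:37720369-37841870) had 3.77, 4.13 and 4.36 CPM in KO_Basal, 4.72, 5.74 and 6.56 CPM in KO_OL and 5.59, 5.64 and 5.68 CPM in KO_RL. It rose in both (log2 change 0.38 ± 0.11 and 0.39 ± 0.11, adjusted p = 0.0150 in each, limma), and the call in KO_RL remained with the GC correction (adjusted p = 0.046). Without KO_Basal replicate 2 the adjusted p was 0.065 and 0.066, and without KO_OL replicate 3 that of KO_OL was 0.087. In WT mice its change was 0.12 in both OL and RL. The other called *Pcdhg* genes each passed in 1 comparison. *Pcdhga2* rose in KO_OL from 8.17 to 8.79 CPM to 10.9 to 14.0 CPM (log2 change 0.54 ± 0.16, adjusted p = 0.0230, limma). *Pcdhga9* rose there from 5.40 to 7.06 CPM to 7.99 to 9.35 CPM (0.45 ± 0.15, adjusted p = 0.0357). The calls of *Pcdhga2* and *Pcdhga9* were both lost with the GC correction. *Pcdhgb7* rose in KO_RL (0.40 ± 0.14, adjusted p = 0.0470) and *Pcdhgb6* in WT_RL (0.32 ± 0.11, adjusted p = 0.0487), each near the threshold and lost in 10 of 15 alternatives. The libraries of the groups compared did not overlap for these genes, which adds no support, since the genes were picked by their calls. *Pcdhgc4* was not called in any comparison, with changes of 0.11 and 0.34 for WT_OL and WT_RL and of 0.32 and 0.19 for KO_OL and KO_RL.

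**Figure D5:**
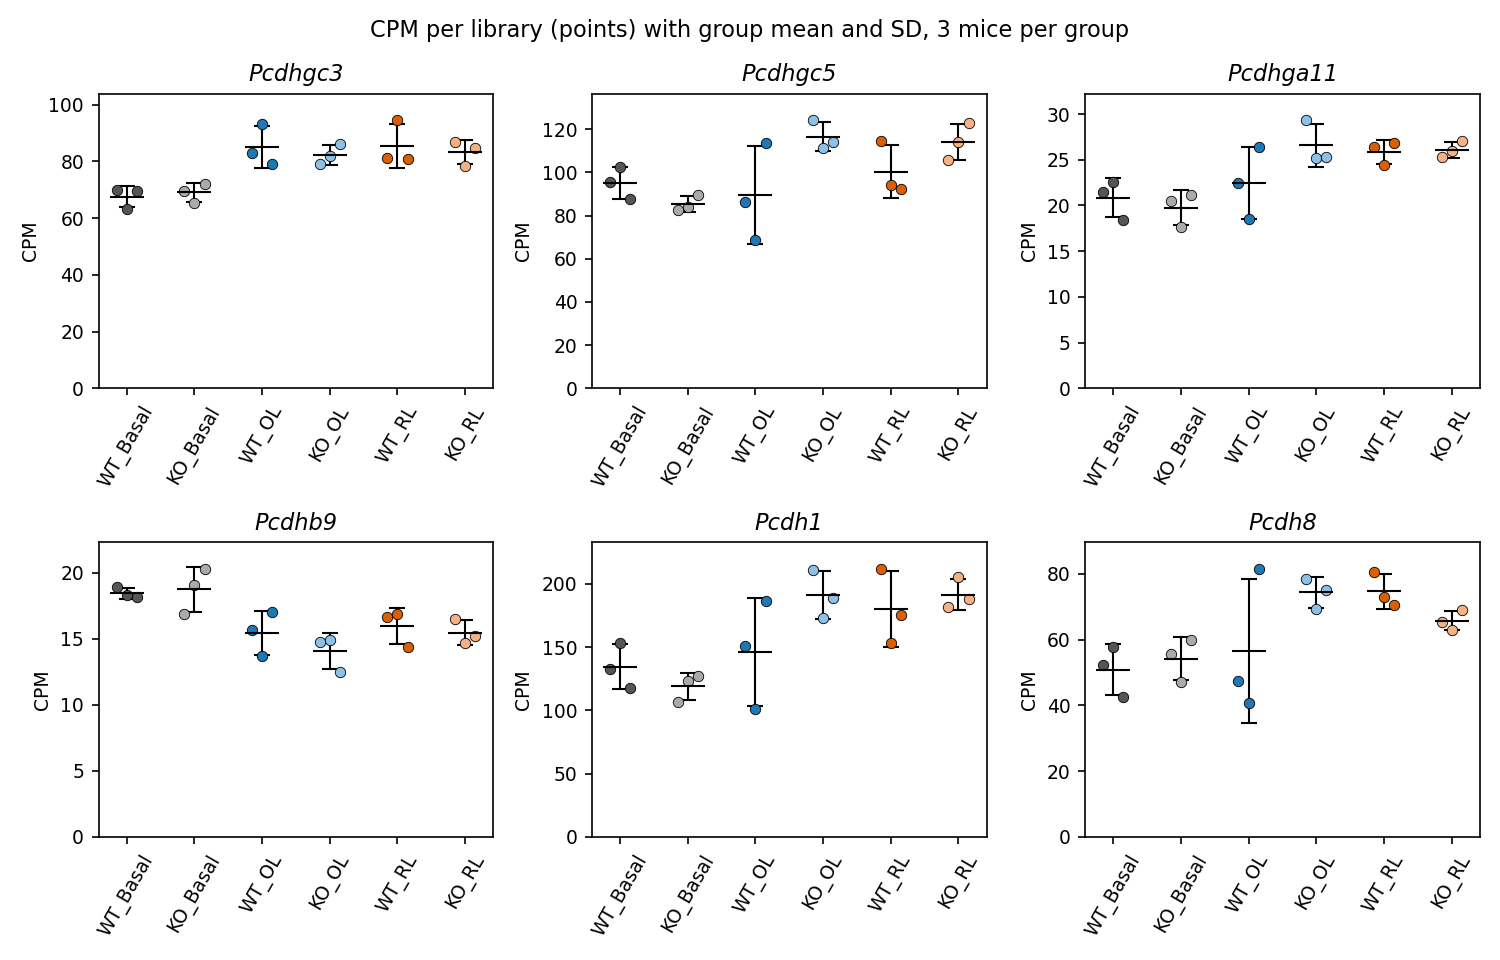
CPM of 6 protocadherins in each library (points), with the group mean and SD (n = 3). *Pcdhgc3* is higher in all trained groups, *Pcdhgc5*, *Pcdhga11* and *Pcdh1* separate from the untrained libraries in both trained KO groups, *Pcdhb9* lies lower in KO_OL, and *Pcdh8* is higher in WT_RL. Points run from replicate 1 on the left to replicate 3 on the right.

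***Pcdha* and *Pcdhb* genes.** No *Pcdha* gene was called. The median change was 0.23 in KO_OL, 0.18 in KO_RL, 0.13 in WT_RL and 0.02 in WT_OL, with 10, 11, 8 and 6 of 11 genes above 0. The WT_OL median was 0.11 without WT_OL replicate 2. *Pcdhac2* had 27.9, 28.8 and 30.6 CPM in KO_Basal, 35.2, 36.0 and 37.5 CPM in KO_OL and 33.8, 38.7 and 41.8 CPM in KO_RL. The log2 changes of 0.31 and 0.37 did not pass (adjusted p = 0.159 and 0.090, limma). With WT_OL replicate 2 left out of the shared fit, the adjusted p was 0.045 and 0.018 by limma. *Pcdha12* had 4.80, 5.11 and 5.60 CPM in KO_Basal, 6.70, 7.45 and 7.66 CPM in KO_OL and 6.92, 7.94 and 8.00 CPM in KO_RL. Its changes of 0.42 and 0.48 had adjusted p of 0.099 and 0.063 by limma, and 0.0033 and 0.0013 without that library. *Pcdhac1* changed by 0.21 in KO_OL and -0.33 in WT_OL, neither of which passed.

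*Pcdhb9* was the single *Pcdhb* gene called. It had 16.9, 19.1 and 20.3 CPM in KO_Basal and 12.5, 14.7 and 14.9 CPM in KO_OL, so that all KO_OL libraries were lower. It fell by 0.39 ± 0.10 on the log2 scale (adjusted p = 0.00904, limma), also with the GC correction (adjusted p = 0.014), and the call was lost among 15 alternatives only without KO_OL replicate 3 (adjusted p = 0.055). In KO_RL it had 14.7, 15.2 and 16.5 CPM, in WT_Basal 18.1, 18.3 and 18.9 CPM, in WT_OL 13.7, 15.7 and 17.0 CPM and in WT_RL 14.4, 16.7 and 16.9 CPM. The changes of -0.26 in KO_RL, -0.25 in WT_OL and -0.20 in WT_RL did not pass (adjusted p = 0.064, 0.123 and 0.180, limma). Over the same 4 comparisons *Pcdhb7* had changes of -0.28 in WT_OL, where replicate 2 was at 7.18 CPM and the others at 10.4 and 11.6 CPM, and of -0.12 to -0.03 elsewhere, none of which passed. *Pcdhb17* had -0.13 to 0.08. *Pcdhb14* and *Pcdhb6*, singled out after their values were seen, were called only with the GC correction, *Pcdhb14* higher in KO_OL (0.34) and WT_RL (0.48) and *Pcdhb6* higher in KO_RL (0.47).

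**Non-clustered genes.** *Pcdh1* (chr18:38185914-38212053, minus strand), an adhesion gene also known from airway epithelium, had the largest rise of any protocadherin. It had 107, 123 and 127 CPM in KO_Basal, 173, 189 and 211 CPM in KO_OL and 181, 188 and 205 CPM in KO_RL. No trained KO library overlapped an untrained one, a 1.60-fold difference in both (log2 change 0.68 ± 0.17, adjusted p = 0.00981 in KO_OL and 0.00931 in KO_RL, limma). With the GC correction, the adjusted p was 0.064 and 0.054, and no other single alternative but that correction combined with the replicate block ended these calls. In WT mice it had 118, 132 and 153 CPM untrained, 101, 151 and 186 CPM in WT_OL and 153, 175 and 212 CPM in WT_RL. WT_RL touched the untrained range at its lowest library, with a change of 0.41 ± 0.17 (adjusted p = 0.113, limma), and WT_OL spanned it. The difference between genotypes in the OL change, 0.59 ± 0.24, did not pass (adjusted p = 0.390).

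*Pcdh8*, also called arcadlin, is an activity-induced gene whose product takes N-cadherin from synapses. It had 42.5, 52.4 and 57.6 CPM in WT_Basal and 70.5, 72.8 and 80.7 CPM in WT_RL, without overlap (log2 change 0.55 ± 0.18, adjusted p = 0.0456, limma). This call was lost in 8 of 15 alternatives, the GC correction (adjusted p = 0.177) and the absence of WT_Basal replicate 1 or 3 or of any WT_RL library (0.061 to 0.186) among them. It had 47.0, 55.5 and 59.9 CPM in KO_Basal, 69.4, 75.2 and 78.5 CPM in KO_OL and 63.0, 65.5 and 69.0 CPM in KO_RL. The changes of 0.46 in KO_OL and 0.28 in KO_RL did not pass (adjusted p = 0.076 and 0.270, limma). In WT_OL the libraries parted, at 40.8, 47.3 and 81.6 CPM. Of 8 other activity-induced genes, 8 were called higher in WT_OL, 3 in each of KO_OL and WT_RL and 2 in KO_RL. Their part in the values of *Pcdh8* was not tested.

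*Pcdh15* had 12.6, 14.2 and 17.3 CPM in KO_Basal and 7.08, 9.65 and 10.9 CPM in KO_OL, without overlap. It fell by 0.63 ± 0.17 on the log2 scale (adjusted p = 0.0123, limma), and the call held with the GC correction (adjusted p = 0.031) but not without KO_Basal replicate 1 or KO_OL replicate 1 (adjusted p = 0.068 and 0.073). In KO_RL it had 9.03, 9.07 and 14.3 CPM, which overlapped KO_Basal. *Pcdh11x* (chrX:120290259-120910619) had 14.3, 15.5 and 22.2 CPM in KO_Basal and 10.6 to 12.2 CPM in KO_RL. It fell by 0.56 ± 0.18 on the log2 scale (adjusted p = 0.0314, limma). With the GC correction it fell by 0.17 (adjusted p = 0.484) and without KO_Basal replicate 1 by 0.38 (adjusted p = 0.170), and without KO_RL replicate 1 or 3 the adjusted p was 0.089 and 0.084.

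The remaining 8 non-clustered genes were not called in any comparison. *Pcdh20* changed by -0.27 in WT_OL and by 0.00 to 0.07 in the other training comparisons, and *Pcdh9* by -0.27 to -0.07. *Pcdh10* had -0.25 to -0.16, *Pcdh7* had -0.19 to -0.03, and *Pcdh12* had -0.22 to -0.12. *Pcdh17* and *Pcdh19* had -0.41 and -0.50 in WT_OL, where replicate 2 was at 54.4 and 44.3 CPM and the other WT_OL libraries were at 85.7 and 126 CPM for *Pcdh17* and 77 and 109 CPM for *Pcdh19*. Elsewhere they lay between -0.15 and 0.05. *Pcdh18* had 0.32 in WT_RL and -0.22 to -0.05 in the others.

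Promoters of *Pcdh8* and *Pcdh15* are printed because these are the called genes with an entry in the RefSeq promoter table (GRCm38.p6, 250 bases before to 50 bases after the start), which held 9 of the 66 members. Capitals mark TATAAA, searched on both strands. *Pcdh8* lies at chr14:79771263-79771562 on the minus strand and *Pcdh15* at chr10:73821617-73821916 on the plus strand, from 5′ to 3′.
Pcdh8: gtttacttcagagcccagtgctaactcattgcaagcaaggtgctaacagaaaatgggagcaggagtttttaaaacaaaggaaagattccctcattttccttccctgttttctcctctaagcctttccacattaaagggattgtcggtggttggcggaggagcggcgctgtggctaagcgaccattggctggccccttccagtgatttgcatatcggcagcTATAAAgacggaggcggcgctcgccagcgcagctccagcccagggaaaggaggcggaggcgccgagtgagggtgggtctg
Pcdh15: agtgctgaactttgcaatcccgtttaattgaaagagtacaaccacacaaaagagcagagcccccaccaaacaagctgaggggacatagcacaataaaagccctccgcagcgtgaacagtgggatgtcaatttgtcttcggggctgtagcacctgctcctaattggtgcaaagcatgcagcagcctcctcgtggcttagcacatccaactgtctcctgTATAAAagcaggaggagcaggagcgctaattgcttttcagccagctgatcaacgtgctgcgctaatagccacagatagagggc
The motif stood 30 bases before the RefSeq start of *Pcdh8* and 33 bases before that of *Pcdh15*. It was in none of the other 7 genes with an entry, beside 13.6% of all promoters in the table. The RefSeq start of *Pcdh15* lies inside the gene as given by GENCODE M21, where it begins at chr10:73099342. TGACGTCA, the full cAMP response element, was in none of the 9 genes, beside 1.79% of all promoters.

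**OL against RL.** No protocadherin was called between RL and OL in either genotype, beside 0.261% of all genes called in WT and 0.0196% in KO. At an unadjusted p under 0.05 there were 16 members in WT beside 16.4% of all genes and 2 in KO beside 4.81%, and voom on reads called none. Without WT_OL replicate 3, 16 members were called in WT beside 13.3% of all genes, and without WT_RL replicate 1 there was 1 beside 0.587%. In WT the lowest p of each family belonged to *Pcdhga5* (log2 difference 0.56 ± 0.14, adjusted p = 0.10, limma), *Pcdhb11* (0.27), *Pcdhac1* (0.32) and *Pcdh8* (0.46). All of these were higher in WT_RL. The median over the 66 genes was 0.19 in WT. Without WT_OL replicate 2 it was 0.04 for *Pcdha*, 0.04 for *Pcdhb*, 0.06 for *Pcdhg* and 0.01 for non-clustered genes. For KO mice the lowest p belonged to *Pcdhb10* (0.36), *Pcdha3* (0.43), *Pcdhga7* (-0.16) and *Pcdh15* (0.20). *Pcdhgc3* differed by 0.01 ± 0.08 in WT (95% interval -0.16 to 0.18) and 0.02 ± 0.08 in KO.

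**Genotype.** The comparison of untrained KO with untrained WT mice asks which genes the loss of *Ccny* alters before training. The clusters lie 27.5 megabases from *Ccny* on the same chromosome. No protocadherin was called in KO_Basal against WT_Basal, beside 0.0196% of all genes, with 1 member at an unadjusted p under 0.05 (613 of all 15329 genes) and none called by voom on reads. This was *Pcdhac1*, with 2.96, 2.98 and 3.1 CPM in KO_Basal and 3.66, 4.01 and 4.23 CPM in WT_Basal. The change of -0.30 ± 0.12 did not pass (adjusted p = 0.994, limma). The lowest p of the other families belonged to *Pcdhb11* (0.20), *Pcdhga2* (-0.31) and *Pcdh18* (0.24). *Pcdhgc3* differed by 0.03 (95% interval -0.14 to 0.20), *Pcdhgc5* by -0.15 (-0.44 to 0.13), *Pcdhac2* by -0.09 (-0.41 to 0.24) and *Pcdh1* by -0.17 (-0.53 to 0.19).

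Averaged over the 3 training states, no protocadherin was called between KO and WT, beside 0.0326% of all genes, with 4 members at an unadjusted p under 0.05 (8.36% of all genes) and none called by voom on reads. The lowest p belonged to *Pcdhgb2* (0.22 ± 0.07, adjusted p = 0.394, limma), *Pcdhb4* (0.20), *Pcdha11* (0.15) and *Pcdh17* (0.18). The differences of the 66 genes ran from -0.08 to 0.22. Their family medians were 0.06 in *Pcdha*, 0.06 in *Pcdhb*, 0.10 in *Pcdhg* and 0.03 in the non-clustered genes, and 0.02, -0.01, 0.02 and 0.01 without WT_OL replicate 2.

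In KO_OL against WT_OL no member was called, beside 0.0652% of all genes, and voom on reads called none. At an unadjusted p under 0.05 there were 17 members, beside 2764 of all 15329 genes, and 59 of 66 differences were above 0 with a median of 0.20. With WT_OL replicate 2 left out there were 7 members at that level, and the family medians were 0.05 in *Pcdha*, 0.01 in *Pcdhb*, 0.10 in *Pcdhg* and 0.03 in the non-clustered genes. Without WT_OL replicate 3, 17 members were called, all higher in KO_OL, beside 10.8% of all genes called higher. *Pcdhga5* had the lowest p (0.58 ± 0.14, adjusted p = 0.109, limma), with 5.76, 8.10 and 9.05 CPM in WT_OL, replicate 2 lowest, and 11.4, 11.7 and 12.2 CPM in KO_OL. In KO_RL against WT_RL no gene was called (0.00%), by limma or by voom on reads, with 2 members at an unadjusted p under 0.05 beside 4.93% of all genes and a median over the 66 genes of 0.01.

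The differences between KO and WT in the change with training were not called for any protocadherin, nor for any gene in the series (0.00% in OL and 0.00% in RL). At an unadjusted p under 0.05 there were 9 members in OL beside 12.4% of all genes and 1 in RL beside 4.99%, and voom on reads called none. Without WT_OL replicate 3, 10 members were called in OL, all higher, beside 3.73% of all genes called higher. In OL the lowest p belonged to *Pcdhga2* (0.85 ± 0.23, adjusted p = 0.388, limma), *Pcdhac1* (0.54), *Pcdh1* (0.59) and *Pcdhb13* (0.38). *Pcdhga2* had 5.70, 8.87 and 11.4 CPM in WT_OL, with replicate 2 lowest. In RL the lowest p belonged to *Pcdhb11* (-0.32), *Pcdhgb2* (0.32), *Pcdh18* (-0.54) and *Pcdha10* (-0.29). The median difference in OL over the 66 genes was 0.24. Without WT_OL replicate 2 it was 0.08 for *Pcdha*, 0.00 for *Pcdhb*, 0.13 for *Pcdhg* and 0.03 for non-clustered genes.

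**Regulators, partners and relatives.** Choice among the clustered promoters depends on CTCF, cohesin and DNA methylation, and repressors such as SETDB1, WIZ and G9a are known to act on the clusters. Of 21 such regulators tested, 5 were higher and 2 lower in KO_OL, and 8 higher and 1 lower in KO_RL. In each of WT_OL and WT_RL 3 were higher. Of all genes, 23.5% were called in KO_OL, 23.6% in KO_RL, 9.50% in WT_OL and 15.7% in WT_RL. The median change of the regulators was 0.13 in KO_OL, 0.20 in KO_RL, -0.08 in WT_OL and 0.11 in WT_RL. *Rest*, the repressor of neuronal genes, rose by 0.85 ± 0.16 in KO_OL, 0.84 ± 0.16 in KO_RL and 0.52 ± 0.16 in WT_RL (adjusted p = 0.0015, 0.0017 and 0.037, limma). *Trim28*, a corepressor, rose in all 4 comparisons, by 0.26, 0.41, 0.35 and 0.38 in WT_OL, KO_OL, WT_RL and KO_RL. *Rad21*, a cohesin subunit, fell by 0.20 in KO_OL and 0.21 in KO_RL. With the GC correction, 3 of the 7 calls in KO_OL and 5 of the 9 in KO_RL remained, *Rest* and *Trim28* in both, and none of the 3 in WT_OL.

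Of 20 partners and effectors, kinases and actin regulators bound by protocadherins among them, 4 were higher and 1 lower in KO_OL and 4 higher in KO_RL. In WT_RL 3 were higher and 1 lower, and in WT_OL 1 was lower. The shares of all genes called were 23.5% in KO_OL, 23.6% in KO_RL, 15.7% in WT_RL and 9.50% in WT_OL. *Ptk2b*, which encodes the kinase PYK2 that the cytoplasmic parts of *Pcdha* and *Pcdhg* proteins inhibit, rose by 0.59 ± 0.18 in KO_OL and 0.57 ± 0.18 in KO_RL. *Cyfip2* of the WAVE complex rose by 0.44 in KO_OL, 0.46 in KO_RL and 0.42 in WT_RL, and *Taok2*, the kinase that acts with *Pcdh8*, by 0.28, 0.32 and 0.25. *Abi1*, another WAVE subunit, fell by 0.43 in WT_OL, 0.27 in KO_OL and 0.32 in WT_RL. With the GC correction 1 of the 14 calls of these partners remained, that of *Cyfip2* in KO_RL.

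Of 34 other genes of the cadherin superfamily, 4 were higher and 1 lower in KO_OL, and 6 higher and 1 lower in KO_RL. In WT_RL 4 were higher and 1 lower, and none was called in WT_OL. The same shares of all genes stand beside these, 23.5%, 23.6%, 15.7% and 9.50% in KO_OL, KO_RL, WT_RL and WT_OL. The calsyntenins *Clstn1* and *Clstn3* rose in the 3 comparisons with calls, by 0.33 to 0.51. *Dchs1* rose by 0.37 in KO_OL and 0.61 in KO_RL. *Cdh10* fell by 0.33 in WT_RL and 0.26 in KO_RL. After GC correction *Cdh10* was higher instead, by 0.16 in WT_RL and 0.23 in KO_RL (adjusted p = 0.178 and 0.032). The calls that remained in direction were those of *Cdh20* in KO_OL, *Dchs1* in KO_RL and *Cdh24* in WT_RL.

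Other measures differed between some trained and untrained groups beside these results. The summed level of 7 nuclear-retained RNAs was 2354 to 3659 CPM in the untrained libraries, 1158 to 1742 CPM in KO_OL, 1409 to 1914 CPM in WT_RL, 1518 to 2636 CPM in WT_OL and 1740 to 3348 CPM in KO_RL. That of 7 oligodendrocyte markers was 5775 to 7346 CPM in KO_Basal and 4782 to 6293 CPM in KO_OL, which overlapped, with none called. In WT mice it was 6937 to 9079 CPM untrained, 7167 to 10454 CPM in WT_OL and 4691 to 8659 CPM in WT_RL. That of 5 CA1 markers was 275 to 362 CPM in KO_Basal, 411 to 530 CPM in KO_OL and 406 to 498 CPM in KO_RL. Of these 5, 1 was called higher in each of KO_OL and KO_RL, with median log2 changes of 0.15 and 0.38. In WT mice the CA1 sums overlapped, at 371 to 444 CPM untrained, 296 to 436 CPM in WT_OL and 388 to 438 CPM in WT_RL. That of 5 dentate granule markers was 217 to 251 CPM in WT_Basal and 313 to 364 CPM in WT_RL, without overlap, in the comparison where *Pcdhgc3*, *Pcdhgb6* and *Pcdh8* were called. None of these 5 markers was called there, and in WT_OL the sum was 147 to 351 CPM, in KO_Basal 192 to 284 CPM, in KO_OL 221 to 325 CPM and in KO_RL 253 to 385 CPM. In each of KO_OL and KO_RL 1 of the 5 was called lower, while the median log2 changes were 0.19 and 0.41. The part of these measures in the changes of protocadherin genes was not tested.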

How the data were processed

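The authors mapped paired reads with STAR 2.5.1 (mm10), counted genes with its count module, normalized with TMM in edgeR 3.12.1 (R 3.3.0) and deposited log2 values. Their methods describe CPM floored at 1, whereas the deposited values are log2(CPM + 1): 2 to the power of each value, minus 1, was a whole multiple of 1 step per library for 100% of values (tolerance 0.1 of a read), which gave reads. The libraries were poly-A selected, with a stranded kit per the labels. The authors' methods name a different kit, the TruSeq RNA Sample Prep Kit. The strand setting of the counting is not given in the sources used here.

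Groups were assigned from the sample titles. Tests used limma 3.58.1 under R 4.3.3 on the deposited log2 values (1 mean per group over 18 libraries, variance trend, 12 residual degrees of freedom, two-sided), and the script was tested on simulated data. Intervals are at 95%. P-values measure the spread between libraries within groups, as 1 estimate per gene pooled over all 6 groups and moderated across genes. Positions, exons and GC content come from GENCODE M21, where 2 *Pcdha* genes were matched by RefSeq starts. The protocadherins and gene lists were chosen with earlier results of these data known. Named were the 3 highest genes per family, the C-type and non-clustered genes, called genes (at most 8 per direction), and otherwise the lowest p per family. The alternatives were the floored scale, a filter at a mean of 1 CPM, upper-quartile scaling, GC correction (loess, span 0.3), voom on reads, fits of only the groups compared, a replicate block, and each library left out. Promoter sequences are from RefSeq. Python 3.11.15 with pandas 2.3.3 and matplotlib 3.10.9 made the tables and figures.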

Additional observations from a re-analysis of the deposited data

How the results depend on the processing

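Counts of protocadherins called depended on the fit. The GC correction gave 0 in WT_OL, 3 in KO_OL and 2 in KO_RL, and together with the replicate block 0, 4 and 2, and 1 in WT_RL. Fitting only the groups compared gave 0 in WT_OL, 19 in KO_OL and 13 in KO_RL. Leaving WT_OL replicate 2 out of the shared fit, an alternative added after seeing the data, gave 17 in KO_OL, 9 in WT_RL and 15 in KO_RL. Leaving out 1 library gave 0 to 10 in WT_OL, 3 to 10 in KO_OL, 0 to 3 in WT_RL, 2 to 8 in KO_RL, 0 to 16 in WT_RL against WT_OL, 0 to 10 for the difference in the OL change, 0 to 17 in KO_OL against WT_OL and 0 in the other comparisons. The highest counts in the comparisons that use WT_OL, 10, 16, 10 and 17, came without WT_OL replicate 3, when replicate 2 was 1 of the 2 remaining WT_OL libraries. In KO_OL the count fell without KO_Basal replicate 1 (4) or 2 (3) or KO_OL replicate 1 (5) or 3 (4), and in KO_RL without KO_Basal replicate 1 (3) or 2 (2) or KO_RL replicate 1 (4) or 3 (2). In WT_RL it was 1 without WT_Basal replicate 1 or 3 or WT_RL replicate 3 and 0 without WT_RL replicate 2, and in WT_OL it was 0 without WT_Basal replicate 2 or WT_OL replicate 2. The replicate block alone gave 1, 9, 4 and 7 in WT_OL, KO_OL, WT_RL and KO_RL and changed no count by over 1.5 times. The replicate numbers do not pair the libraries, since correlations between same-numbered libraries ran from -0.60 to 0.51 and in 0 of 15 pairs of groups were all above 0.1. No called protocadherin reversed direction. Over all alternatives, the 20 calls were kept 200 times and lost 99 times.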
